A study of Mus musculus with 22 samples.

Results

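The report covers 9 transcription factors of the trophectoderm, the outer epithelium of the blastocyst, measured in mouse embryos at embryonic day 3.5. The detection p of a probe is read here as how often a negative control would be as bright, though its method is not stated. Probes were taken by gene symbol in the array's annotation (Cdx2, Eomes, Elf5, Gata3, Gata2, Tfap2c, Tfap2a, Tead4 and Id2) and kept where this p was under 0.05 on at least 3 of the 22 arrays. Of 18 such probes among 25697 on the array, 16 were kept, and each of the 9 genes kept at least 1 and was tested. The embryos were of the B6 or the CD1 strain and had either developed in vivo or been cultured in KSOM, HTF or ISM1 medium. These are 3 media for preimplantation embryos, and the title of the series relates them to assisted reproduction. RNA of B6 embryos from KSOM, HTF, ISM1 and in vivo growth and of CD1 embryos from HTF, ISM1 and in vivo growth was hybridized to 3 arrays per group, which the labels call biological replicates, and CD1 KSOM to 1. The labels do not give the number of embryos behind an array, their sex or the time they spent in culture.

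Trophectoderm fate starts in the outer cells of the morula, where Hippo signalling is low and YAP enters the nucleus to act with TEAD4, which switches on Cdx2 and, alongside it, Gata3. EOMES, ELF5 and the AP-2 factor TFAP2C then belong to the circuit that maintains trophoblast stem cells, and GATA2 is known for later trophoblast genes such as those of giant cells. ID2 is a helix-loop-helix protein without a basic region that blocks the binding of its partners to DNA. In whole blastocysts the RNA of trophectoderm, inner cell mass and primitive endoderm is mixed, so fewer cells of a type and less RNA per cell cannot be told apart.

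Levels are log2 intensities after background correction and quantile normalization. For each of the 9345 tested genes, the factors included, the brightest of the kept probes stands for the gene. A probe's level depends on its sequence as well as on its transcript, so levels were compared between arrays and not between genes. The median raw intensity of an array ran from 90.6 to 154, and 7410 to 9400 probes per array were detected at p under 0.01. The 3 dimmest arrays were CD1 in vivo replicate 1, CD1 ISM1 replicate 3 and B6 KSOM replicate 3. Of the markers fixed for the tissue, the trophectoderm keratins Krt8, Krt18 and Krt7 and the inner cell mass factors Nanog and Pou5f1 were detected on 22 arrays, whereas Krt19 was detected on 0 and Fgf4 on 1. Precision was set by the few arrays, with an SE of 0.43 for the median gene when 2 groups of 3 were compared.

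Tead4, the factor through which YAP opens the trophectoderm programme, was detected on 22 of 22 arrays and kept to a narrow range. Its level was 12.24, 11.65 and 12.15 on the B6 KSOM arrays, 11.61, 11.92 and 11.76 in B6 HTF, 11.85, 11.59 and 11.83 in B6 ISM1 and 11.21, 12.11 and 11.75 in B6 in vivo. In CD1 it was 11.17 on the KSOM array, 11.93, 11.91 and 10.55 in HTF, 11.58, 11.44 and 11.40 in ISM1 and 11.35, 11.11 and 10.94 in vivo. The B6 groups filled the upper part of this range, but the strains overlapped, and 7 of 7 neighbouring groups in the order of means overlapped. The highest mean was 12.02 in B6 KSOM and the lowest 11.13 in CD1 in vivo.

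Cdx2, the caudal-type homeobox factor required for the trophectoderm lineage, was also detected on 22 arrays. It lay between 12.21 and 13.87, with group means from 12.48 in CD1 in vivo to 13.38 in B6 HTF and 12.28 on the CD1 KSOM array, and 7 of 7 neighbouring groups overlapped. Gata3, a zinc-finger factor that acts beside CDX2, was detected on 22 arrays and varied more. Its B6 groups had means of 9.15 ± 1.02 (SD, n = 3) in KSOM, 10.01 ± 0.45 in HTF, 9.41 ± 1.09 in ISM1 and 9.10 ± 1.60 in vivo. In CD1 the means were 8.09 ± 1.40 in HTF, 8.65 ± 2.09 in ISM1 and 8.87 ± 0.65 in vivo, and the single KSOM array had 6.29. The lowest Gata3 levels, 6.23, 6.29, 6.76 and 7.38, came from CD1 ISM1, CD1 KSOM, CD1 HTF and B6 in vivo, so no group of 3 was low as a whole. Of 7 neighbours in the order of means 6 overlapped, the exception being the CD1 KSOM array below CD1 HTF.

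Eomes, the T-box factor of trophoblast stem cells, was detected on 22 arrays. Its level was 9.96, 9.62 and 9.20 in B6 KSOM, 9.99, 9.40 and 9.55 in B6 HTF, 7.97, 8.99 and 10.86 in B6 ISM1 and 10.07, 11.71 and 6.36 in B6 in vivo. In CD1 it was 8.72 in KSOM, 9.16, 9.69 and 9.28 in HTF, 11.20, 9.14 and 7.42 in ISM1 and 7.29, 11.01 and 9.66 in vivo. The highest and the lowest arrays thus sat side by side in the same groups, ISM1 and in vivo of both strains, while the means of the groups of 3 arrays differed by only 0.40, from 9.25 to 9.65, and 7 of 7 neighbours overlapped. Of the variance of Eomes over the 22 arrays, 97.5% lay within groups, against a median of 65.7% over all tested genes.

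Elf5, an ETS factor that stabilizes trophoblast fate once its promoter is unmethylated, was detected on 13 of 22 arrays. Its level was 5.29, 6.09 and 5.0 in B6 KSOM, 5.45, 6.31 and 5.97 in B6 HTF, 5.43, 5.22 and 8.91 in B6 ISM1 and 8.0, 9.65 and 4.76 in B6 in vivo. In CD1 it was 4.83 in KSOM, 6.10, 5.91 and 5.11 in HTF, 9.83, 4.73 and 4.64 in ISM1 and 4.56, 9.28 and 8.04 in vivo. The arrays fell into separate clusters, 6 between 8.0 and 9.83 and 16 between 4.56 and 6.31, with the boundary of 7 set after the values were seen. The upper cluster held 2 arrays each of B6 in vivo and CD1 in vivo, 1 of B6 ISM1 and 1 of CD1 ISM1, and no array of KSOM or HTF. Of 7 neighbours in the order of group means 6 overlapped, the exception being the undetected CD1 KSOM array. A second Elf5 probe was detected on 6 arrays, those of the upper cluster. It had r = 0.96 with the first between deviations from the group mean (adjusted permutation p = 0.00171 over 120 pairs of probes). This coefficient is pooled over the clusters and so reflects their split. It does not show agreement within the lower cluster, where the second probe was not detected.

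Gata2, a zinc-finger factor of trophoblast giant cells, had the widest range of the 9 genes. Its level was 8.93, 10.27 and 8.75 in B6 KSOM, 8.49, 9.96 and 9.25 in B6 HTF, 6.42, 7.08 and 11.33 in B6 ISM1 and 11.49, 12.14 and 5.14 in B6 in vivo. In CD1 it was 10.83 in KSOM, 9.27, 8.56 and 9.53 in HTF, 11.75, 7.55 and 6.75 in ISM1 and 4.98, 12.68 and 9.18 in vivo. As for Eomes, both ends of the range lay in the in vivo and ISM1 groups, and the probe was not detected on 1 B6 in vivo array and 1 CD1 in vivo array. The highest level, 12.68, and the lowest, 4.98, belonged to the same group, CD1 in vivo. The means of the groups of 3 ran from 8.27 in B6 ISM1 to 9.59 in B6 in vivo, and 7 of 7 neighbours overlapped.

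Of the AP-2 factors, Tfap2c, which acts upstream of Cdx2 in the early embryo and in trophoblast stem cells, was detected on 22 arrays within 12.60 to 13.97. Its group means ran from 13.03 in B6 KSOM to 13.71 in CD1 ISM1. Tfap2a, its relative with overlapping binding preference, was detected on 20 arrays. It lay between 7.01 and 10.86 there, and stood at 5.39 on B6 KSOM replicate 3 and 4.76 on CD1 in vivo replicate 1, where it was not detected. Its group means were between 7.87 ± 2.14 in B6 KSOM and 9.39 ± 0.43 in CD1 HTF. Id2 was detected on 22 arrays between 9.05 and 10.93, with means from 9.40 ± 0.11 in B6 HTF to 10.16 ± 0.99 in B6 KSOM and 10.52 on the CD1 KSOM array. For these 3 genes all neighbouring groups in the order of means overlapped.

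**Figure D1:**
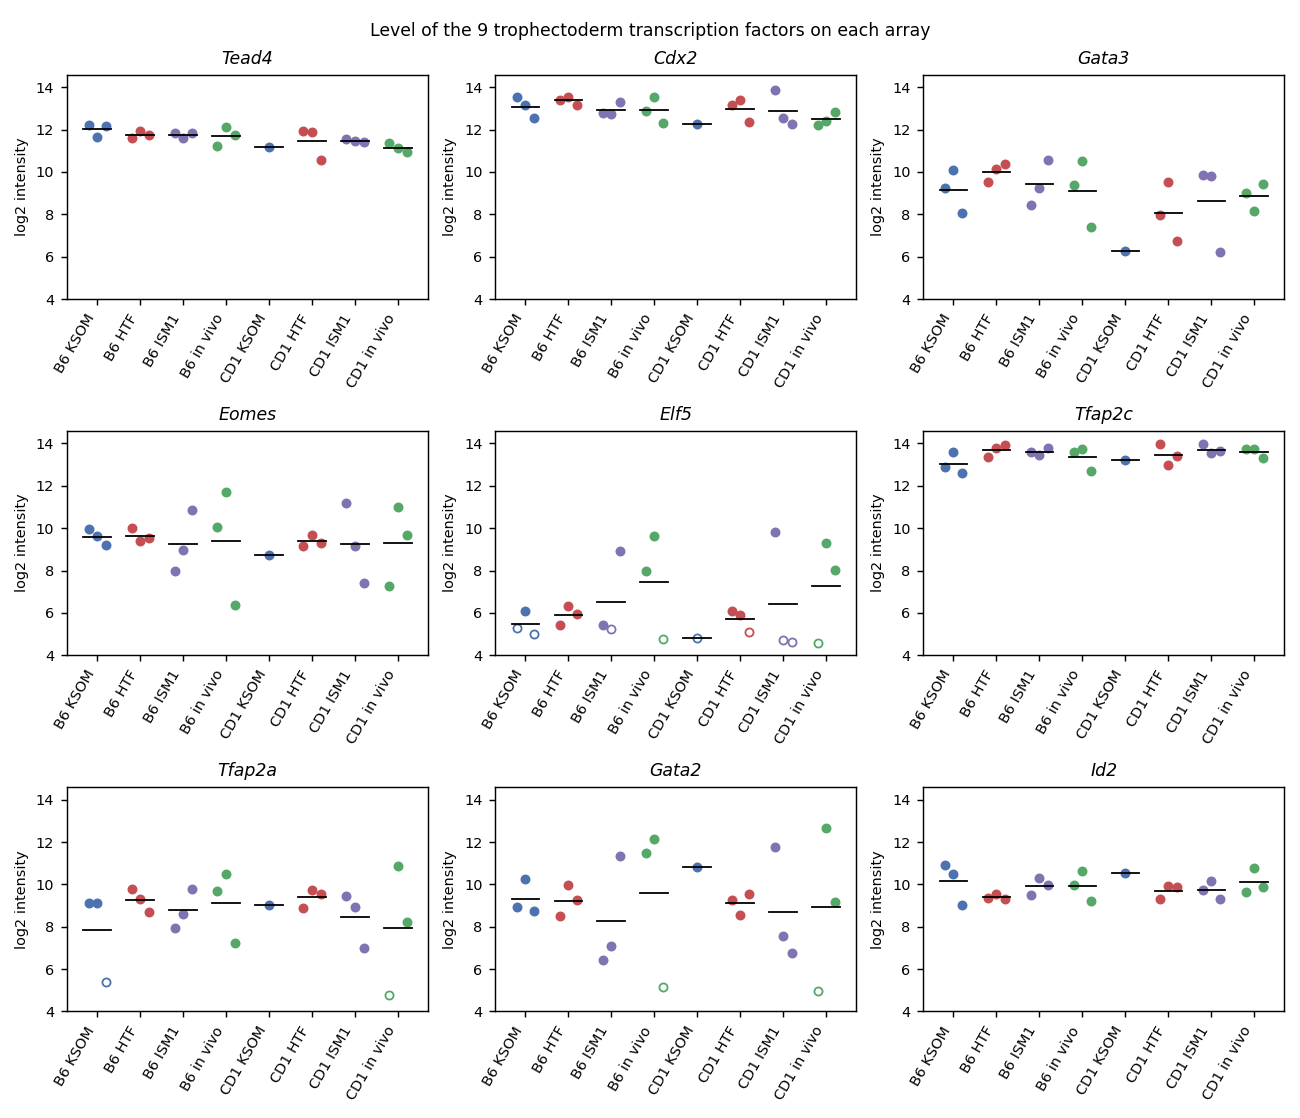
Level of each of the 9 factors on each of the 22 arrays, as log2 intensity on the vertical axis and strain and medium on the horizontal axis. Filled points are arrays with detection p under 0.05, open points arrays without detection, and bars group means; Gata2, Eomes and Elf5 spread widest within the ISM1 and in vivo groups, while Tead4 stays between 10.55 and 12.24.

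The promoters of Gata2, Eomes and Elf5 are shown because Gata2 and Elf5 varied most between arrays of a group and Eomes, as described further on, had the highest coefficient with Gata2 among the factors other than Elf5. The windows are the 250 bases before the annotated start in RefSeq on GRCm38.p6, written in the direction of the gene. Windows were found for 7 of the 9 genes, and Tead4 and Tfap2c were not matched. Capitals mark matches to 6 motifs, 1 for each family among the factors that bind DNA, searched on both strands. The letters GCCNNNGGC stand for the site of the AP-2 factors Tfap2a and Tfap2c. The letters AGATAA stand for that of the zinc-finger factors Gata2 and Gata3. For Tead4 and its relatives the letters searched were GGAATG, for Cdx2 and the other caudal-type factors they were TTTATG, and for Eomes, as a T-box factor, they were AGGTGTGA. The letters AGGAAG represented ETS factors such as Elf5.
Gata2 window 1, chr6:88193641-88193890, plus strand: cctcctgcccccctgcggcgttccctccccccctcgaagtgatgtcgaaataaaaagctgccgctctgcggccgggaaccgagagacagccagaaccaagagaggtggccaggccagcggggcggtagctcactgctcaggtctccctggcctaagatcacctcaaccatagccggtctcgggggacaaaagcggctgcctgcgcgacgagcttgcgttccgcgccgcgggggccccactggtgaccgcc
Gata2 window 2, chr6:88198414-88198663, plus strand: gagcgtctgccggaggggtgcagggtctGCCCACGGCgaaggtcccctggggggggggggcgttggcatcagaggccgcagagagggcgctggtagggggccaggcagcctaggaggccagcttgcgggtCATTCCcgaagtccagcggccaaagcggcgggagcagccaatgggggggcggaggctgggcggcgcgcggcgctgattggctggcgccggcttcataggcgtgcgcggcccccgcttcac
Eomes window 1, chr9:118477939-118478188, plus strand: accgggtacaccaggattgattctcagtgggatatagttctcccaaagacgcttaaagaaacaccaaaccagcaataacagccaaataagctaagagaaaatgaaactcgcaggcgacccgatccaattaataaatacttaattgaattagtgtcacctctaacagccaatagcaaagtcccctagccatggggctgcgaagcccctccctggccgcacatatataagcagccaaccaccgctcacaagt
Elf5 window 1, chr2:103411848-103412097, plus strand: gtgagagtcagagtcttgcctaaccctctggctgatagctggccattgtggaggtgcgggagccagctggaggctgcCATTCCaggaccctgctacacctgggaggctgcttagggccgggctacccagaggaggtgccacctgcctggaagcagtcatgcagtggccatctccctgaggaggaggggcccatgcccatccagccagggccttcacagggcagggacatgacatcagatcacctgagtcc
Elf5 window 2, chr2:103423818-103424067, plus strand: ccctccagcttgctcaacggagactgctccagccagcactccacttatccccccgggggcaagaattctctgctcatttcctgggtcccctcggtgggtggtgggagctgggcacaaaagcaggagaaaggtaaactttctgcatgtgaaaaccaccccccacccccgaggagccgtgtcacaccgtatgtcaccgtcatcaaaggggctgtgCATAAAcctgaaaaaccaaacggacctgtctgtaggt

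Window 2 of Gata2 held 1 AP-2 and 1 TEAD match, window 1 of Elf5 held 1 TEAD match and window 2 of Elf5 held 1 CDX match, while the windows of Eomes and window 1 of Gata2 held 0. No match overlapped another. Over 32851 promoter windows of the same length, 13.7% held the AP-2 letters, 10% the GATA letters, 12.6% the TEAD letters, 10.8% the CDX letters, 1.1% the T-box letters and 29.5% the ELF letters. The motif set was chosen with results known, and the matches describe the letters only.

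The comparison between groups asked whether the factors differed with medium or strain. None of the 9 genes differed beyond the spread between arrays by limma at a Benjamini-Hochberg adjusted p under 0.05 over the 9345 genes, in 18 contrasts and in the moderated F test over the 8 groups. The background was low throughout. Among all genes, the share called was 0% for B6 KSOM, 0.0107% for B6 HTF and 0% for B6 ISM1 against in vivo, and 0.0107% for CD1 HTF and 0% for CD1 ISM1 against in vivo. It was 0.0107% for B6 KSOM against HTF, 0% for B6 KSOM against ISM1, 0% for B6 ISM1 against HTF and 0.0428% for CD1 ISM1 against HTF, where 4 genes were called, or 0 with the replicate number as a block. For CD1 against B6 it was 0.0107% in vivo, 0.0107% in HTF and 0.0107% in ISM1. Averaged over the strains it was 0.203% for HTF and 0% for ISM1 against in vivo and 0.0963% for ISM1 against HTF, and averaged over HTF, ISM1 and in vivo it was 0.235% for CD1 against B6. It was 0% for the strain difference in the HTF effect and in the ISM1 effect, and 0.0856% in the F test. A count of 0 of 9 does not stand apart from these shares.

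Over the 162 differences of the 9 genes, 0 had an unadjusted p under 0.05 by limma, and 0 of 9 did in the F test. Among all genes that share was 5.92% for B6 KSOM, 3.39% for B6 HTF and 1.19% for B6 ISM1 against in vivo, and 7.06% for CD1 HTF and 5.04% for CD1 ISM1 against in vivo. It was 9.53% and 12.3% for B6 KSOM against HTF and ISM1, 1.84% for B6 ISM1 against HTF and 3.58% for CD1 ISM1 against HTF. For CD1 against B6 it was 9.61% in vivo, 2.51% in HTF and 2.49% in ISM1. In the averaged contrasts it was 8.25% for HTF and 3.29% for ISM1 against in vivo, 5.41% for ISM1 against HTF and 10.1% for the strains, with 1.99% and 2.38% for the strain differences in the HTF and ISM1 effects and 8.95% in the F test. Beside shares between 1.19% and 12.3%, a count of 0 of 9 in a contrast does not set the factors apart.

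The smallest p among the 162 was that of Tfap2c in B6 KSOM against HTF, a log2 difference of -0.67 (95% interval -1.36 to 0.03, SE 0.33, adjusted p = 0.53 by limma), with means of 13.03 and 13.69. Next was Tead4 in CD1 against B6, averaged over HTF, ISM1 and in vivo, at -0.38 (95% interval -0.78 to 0.02, SE 0.19, adjusted p = 0.511 by limma). Gata3 in CD1 HTF against B6 HTF differed by -1.92 (95% interval -3.94 to 0.10, SE 0.96, adjusted p = 1 by limma). These intervals include 0, so neither no difference nor a large one is set aside for Gata3. For the genes with wide spread the intervals exclude little: Gata2 in B6 HTF against in vivo differed by -0.36 with an interval of -4.3 to 3.58, and Elf5 in B6 KSOM against in vivo by -2.01 with an interval of -5.0 to 0.98. For Cdx2, by contrast, the HTF effect averaged over the strains was 0.48 with an interval of -0.15 to 1.1, and for Tfap2c it was 0.10 with an interval of -0.39 to 0.60. The strain-averaged ISM1 effect was 0.20 (interval -0.29 to 0.69) for Tead4, -0.09 (-1.80 to 1.63) for Eomes and -0.79 (-3.57 to 2.00) for Gata2.

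Groups of 3 arrays failed to overlap in 2 of 108 comparisons between 2 groups, both for Tead4. All CD1 ISM1 arrays lay above all CD1 in vivo arrays (difference 0.34, SE 0.33), where 5.2% of all genes were separated, and all lay below the B6 ISM1 arrays (difference -0.29, SE 0.33), where 8% were. Of the 9 members, 1 was separated in each of these comparisons and 0 in the other 10, whose shares over all genes were 8.19% for B6 KSOM, 10.8% for B6 HTF and 8.28% for B6 ISM1 against in vivo, 10.4% for CD1 HTF against in vivo, 15% and 16% for B6 KSOM against HTF and ISM1, 10.2% for B6 ISM1 against HTF, 8.7% for CD1 ISM1 against HTF, and 10.4% and 13.6% for CD1 against B6 in vivo and in HTF. The second Tead4 probe, annotated to another transcript, had 8.36, 9.89 and 11.16 in CD1 ISM1 against 10.50, 8.56 and 9.11 in CD1 in vivo and so overlapped.

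The factors differed in how far arrays of 1 group stood apart. The SD within groups, pooled over the 7 groups of 3 arrays, was 2.55 for Gata2, 1.93 for Elf5, 1.69 for Tfap2a, 1.56 for Eomes and 1.29 for Gata3, against a median of 0.54 over all genes. Only 4 of the 9345 genes had a higher SD than Gata2, and 31, 75, 122 and 321 had a higher SD than the other 4 of these genes. By the probes used for the tests the other members were nearer to the median: Id2 at 0.57, Cdx2 at 0.52, Tfap2c at 0.39 and Tead4 at 0.38 had a higher SD than 55%, 47.9%, 25.4% and 24.7% of genes. Their other probes detected on 22 arrays spread more, with an SD of 0.98 for Tead4, 0.94 and 0.61 for Tfap2c and 0.91 for Id2. These SDs are a description, chosen for emphasis after the values were seen, and were not tested.

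The spread of Gata2 was uneven over groups. Its SD was 3.87 in B6 in vivo, 3.85 in CD1 in vivo, 2.66 in B6 ISM1 and 2.68 in CD1 ISM1, against 0.83 in B6 KSOM, 0.74 in B6 HTF and 0.50 in CD1 HTF. Eomes had 2.74, 1.88, 1.46 and 1.89 in the same in vivo and ISM1 groups, in the same order, and 0.38, 0.31 and 0.28 in the KSOM and HTF groups. Both genes thus had lower SDs in the KSOM and HTF groups than in the ISM1 and in vivo groups of both strains. The median SD over all genes was 0.46 and 0.61 in B6 and CD1 in vivo, 0.35 and 0.50 in B6 and CD1 ISM1, 0.49 in B6 KSOM, 0.31 in B6 HTF and 0.32 in CD1 HTF. In B6 KSOM, B6 HTF and CD1 HTF the SD of Gata2 was thus still above that median. With 3 arrays in a group, each SD is itself imprecise, and the difference in spread between groups was not tested.

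Covariation was measured between the arrays of a group, as correlation of deviations from the group mean over the 21 arrays of the groups of 3, with exact permutation of the arrays within groups and Benjamini-Hochberg adjustment over the 36 pairs of factors. Because the Elf5 arrays fall into clusters, its 8 pairs are not described by a pooled coefficient here, although they count in the adjustment. Of the other 28 pairs, 25 correlated positively and 3 negatively, and 10 passed at an adjusted p under 0.05, all positive. Of all tested genes, between 48.8% (with Tead4) and 52.8% (with Tfap2c) correlated positively with a factor. An r above 0.7 in size was reached by 18.6% of genes with Gata2, 15% with Eomes and 0.0963% with Tead4. How many pairs of all tested genes would pass was not counted, so 10 of 28 does not set the factors apart. The highest coefficients joined Gata2, Eomes and Tfap2a to each other and Tfap2a to Id2. The share of other tested genes that correlated as highly is given below for the pairs that passed, for some as a range. It reached 18.7% for Gata2 with Tfap2c.

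**Figure D2:**
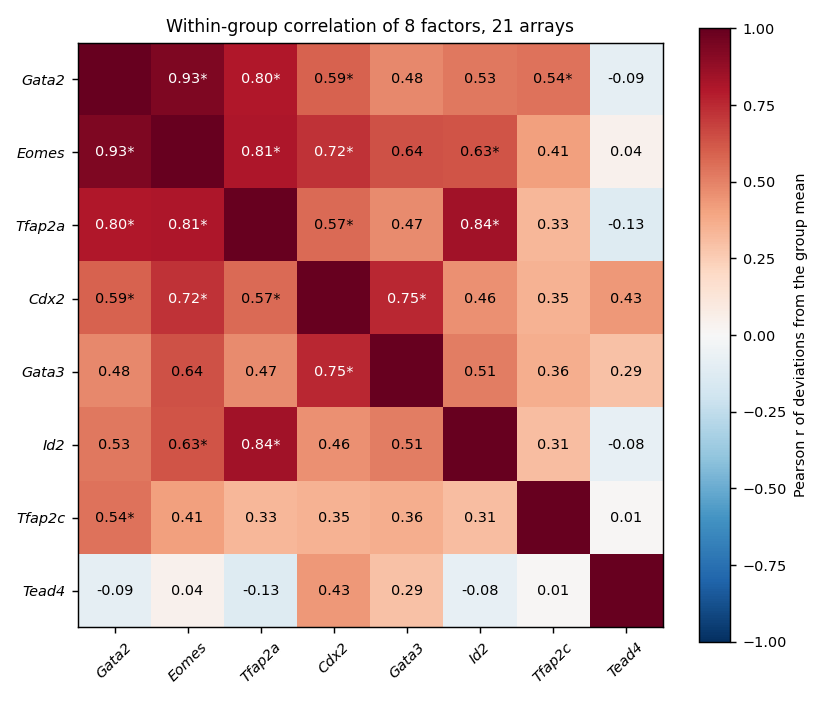
Pearson correlation between deviations from the group mean for 8 of the factors over 21 arrays, leaving out Elf5. Stars mark the 10 pairs with an adjusted exact permutation p under 0.05; Gata2 with Eomes is highest at 0.93, and the row of Tead4 lies between -0.13 and 0.43 without a star.

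Gata2 and Eomes had r = 0.93 and rho = 0.83 (adjusted exact permutation p = 0.00889 and 0.0226). Without the 2 arrays whose Eomes deviation lay farthest from its median, r was 0.91. Only 1 gene of a pair set this removal, so extremes of the other gene could stay. The r of Gata2 with Eomes was 0.92 over B6 arrays and 0.94 over CD1 arrays (adjusted exact permutation p = 0.0633 and 0.25). Of the other tested genes, 0.514% correlated as highly with Gata2 and 0.171% as highly with Eomes. In the ISM1 and in vivo groups of both strains the arrays had the same order for both genes. In HTF they did not: Eomes was highest on the array where Gata2 was lowest, at 9.99 against 8.49 in B6 and 9.69 against 8.56 in CD1. The coefficient therefore does not describe every group. Tfap2a had r = 0.81 and rho = 0.90 with Eomes (adjusted exact permutation p = 0.00103 and 0.00154), r = 0.80 and rho = 0.76 with Gata2 (0.00889 and 0.0136) and r = 0.84 and rho = 0.81 with Id2 (0.00883 and 0.0136), the last not shared by the second Id2 probe (r = 0.39). Without the 2 farthest arrays, chosen by Eomes for its pair and by Tfap2a for the others, these r were 0.81, 0.85 and 0.82. Over B6 arrays they were 0.74, 0.69 and 0.90 and over CD1 arrays 0.90, 0.91 and 0.83. As highly correlated with Tfap2a were 1.4%, 1.76% and 0.803% of the other tested genes. With Eomes, Gata2 and Id2 these shares were 3.08%, 4.85% and 0.3%. Cdx2 with Eomes had r = 0.72 and rho = 0.72 (adjusted exact permutation p = 0.0124 and 0.0136), with r = 0.81 in B6 and 0.65 in CD1. Without the 2 arrays farthest by Cdx2 its r was 0.52 and no longer passed (adjusted exact permutation p = 0.104). Of the other tested genes, 1.59% correlated as highly with Cdx2 and 7.41% as highly with Eomes. These 5 pairs passed by Pearson correlation in each of 21 fits that left out 1 array.

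The other 5 pairs that passed did not do so in every fit without 1 array. They were Cdx2 with Gata3 (r = 0.75, rho = 0.70), Cdx2 with Tfap2a (0.57, 0.64), Cdx2 with Gata2 (0.59, 0.59), Eomes with Id2 (0.63, 0.62) and Tfap2c with Gata2 (0.54, 0.60). Their adjusted exact permutation p by Pearson were 0.0415, 0.0434, 0.0457, 0.0367 and 0.0434, and by Spearman 0.0467, 0.0226, 0.0505, 0.0541 and 0.0258. They passed in 12, 7, 6, 15 and 7 of the 21 fits without 1 array. Without the 2 arrays farthest by the gene named first, r was 0.70, 0.53, 0.38, 0.49 and 0.31. Over B6 arrays r was 0.81, 0.90, 0.73, 0.62 and 0.78, and over CD1 arrays 0.71, 0.33, 0.49, 0.67 and 0.22. As highly correlated with the gene named first were 0.771%, 8.38%, 7.07%, 11.5% and 10.5% of the other tested genes. With the gene named second these shares lay between 0.856% for Cdx2 with Gata3 and 18.7% for Tfap2c with Gata2. Gata3 passed with Cdx2 alone among these factors, its next highest being Eomes (r = 0.64, rho = 0.57, adjusted exact permutation p = 0.0554 and 0.0632). Tead4 passed with none, and its coefficients lay between -0.13 with Tfap2a and 0.43 with Cdx2.

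Over the B6 arrays alone 8 of these 28 pairs passed, and over the CD1 arrays alone 0 did, where 216 permutations allow no p below 0.00463. Signs were positive for 24 pairs in B6 and 21 in CD1. Gata3 with Gata2 had r = 0.90 in B6 (adjusted exact permutation p = 0.0185) and 0.11 in CD1 (0.902), and Gata3 with Tfap2c 0.87 and -0.21. The difference between strains was not tested.

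For Elf5, coefficients are given within its clusters of arrays, on levels, as a description. In the upper cluster of 6 arrays, Elf5 had r = 0.94 and rho = 0.89 with Eomes, and r = 0.70 without the 2 arrays farthest by Elf5. With Gata2 it had r = 0.67 and rho = 0.60 there, and r = 0.25 without the 2 farthest. Among the 16 lower arrays r was 0.61 with Eomes and 0.57 with Gata2, rho was 0.67 and 0.57, and without the 2 farthest arrays r was 0.64 and 0.51. All of these were positive, but the clusters were cut on Elf5 itself after its values were seen, both mix arrays of several strains and media, and on 9 of the 16 lower arrays Elf5 was not detected.

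Array brightness moved with several factors. The deviation of log2 median intensity correlated with that of Tfap2a (r = 0.81), Id2 (0.74), Eomes (0.63), Cdx2 (0.56), Gata2 (0.53), Gata3 (0.45), Tfap2c (0.19) and Tead4 (-0.32), given without a test. With brightness regressed out of the deviations, Gata2 with Eomes had r = 0.90 (adjusted permutation p = 0.000472), Tfap2a with Gata2 0.75 (0.0190), Eomes with Tfap2a 0.66 (0.0172), Cdx2 with Eomes 0.57 (0.0432) and Tfap2a with Id2 0.60 (0.0682). Here residuals were permuted, so these p are approximate, and a lower p than before the regression is not read as stronger covariation. Of the 28 pairs, 5 then passed, among them Tead4 with Cdx2 (r = 0.77, adjusted 0.0432). Without the 3 dimmest arrays, a setting chosen after seeing the data, Gata2 with Eomes had 0.91 (adjusted exact permutation p = 0.0545) and Eomes with Tfap2a 0.89 (0.0200), and 2 pairs passed.

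Many other genes moved along with them. The first principal component of the deviations of all 9345 genes took 37.4% of their variance, and 20.6% of genes had an r above 0.7 in size with it. Its r was 0.97 with Gata2, 0.92 with Eomes, 0.79 with Tfap2a, 0.68 with Cdx2, 0.56 with Gata3 and with Tfap2c, 0.52 with Id2 and -0.01 with Tead4, and 0.54 with brightness. Gata2 and Eomes therefore lay along the main direction in which arrays of a group differed. The deviations were not scaled and the factors were among the genes, so genes of high SD, Gata2 included, weighed most in this component. These values describe the arrays and were computed after the pattern was seen.

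Probes of 1 gene disagreed for some factors. The Tead4 probe used for the tests, annotated to NM_001080979, and the second, annotated to NM_011567, had r = -0.19 between deviations. The second fell where Gata2 rose (r = -0.84, adjusted exact permutation p = 0.00359 over 120 pairs of probes), while the first did not follow Gata2 (r = -0.09). Tfap2c had a probe with r = -0.79 with Gata2 (adjusted exact permutation p = 0.0192), against 0.54 for the probe used, and these probes had r = -0.53 with each other, while the remaining probe had r = 0.00 with Gata2. For Tfap2a the 2 probes detected on 20 arrays followed each other (r = 0.97), and the third, detected on 6, had r = -0.56 with the first. With Gata2 the third had r = -0.60 (adjusted exact permutation p = 0.0379), against 0.80 for the probe used and 0.83 for the second. The level of the third lay only between 4.86 and 5.99. The Id2 probes had r = 0.27, and the second had r = 0.39 with Tfap2a (adjusted exact permutation p = 0.211), against 0.84 for the first. With Gata2 the second Id2 probe had r = 0.70 (adjusted exact permutation p = 0.00991) and the first 0.53 (0.0965). Covariation with Gata2 thus turned its sign between probes of Tfap2c and of Tfap2a, and passed with 1 of 2 probes of Tead4 and of Id2. What these probes target differently was not tested.

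**Figure D3:**
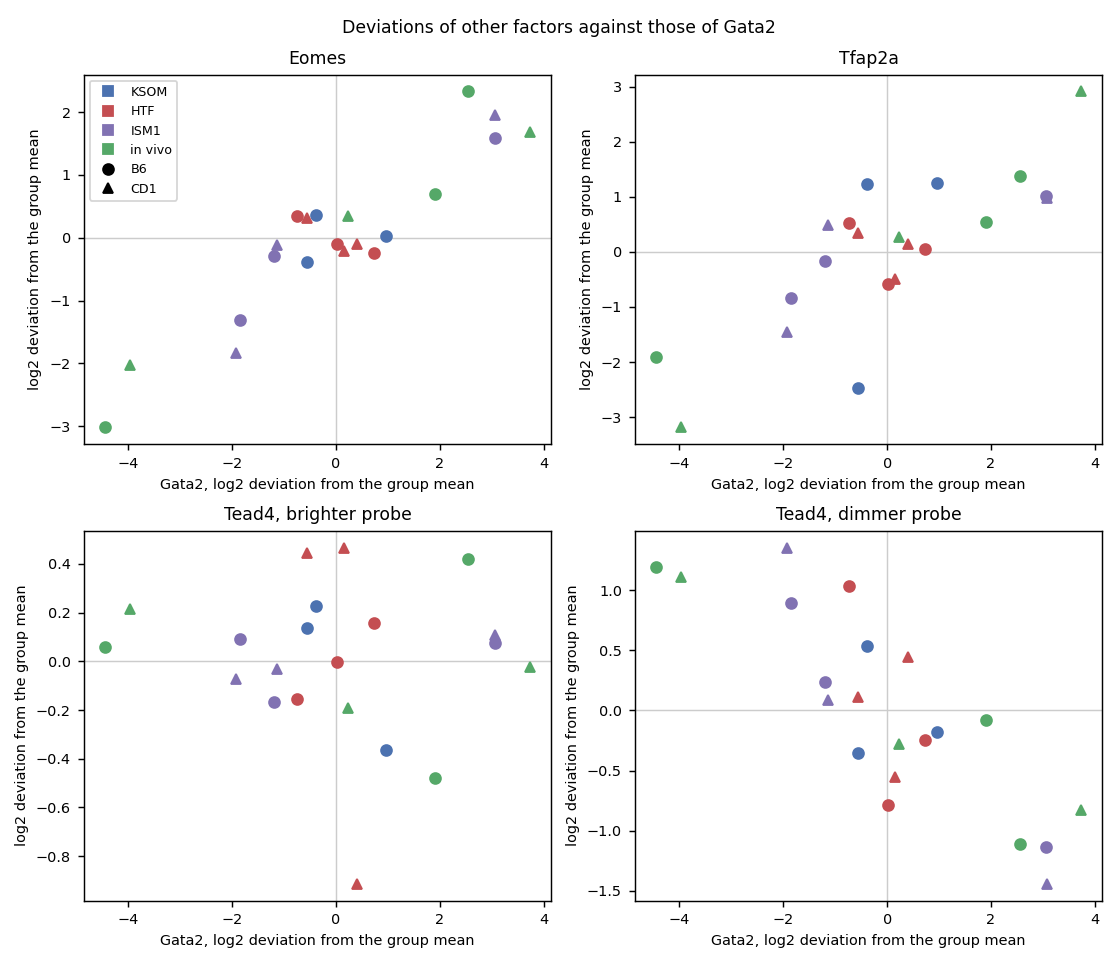
Deviation from the group mean of Eomes, Tfap2a and both Tead4 probes, on the vertical axes, against that of Gata2, on the horizontal axes, both in log2 intensity. Points are the 21 arrays of the groups of 3, coloured by medium with circles for B6 and triangles for CD1; Eomes rises with Gata2 (r = 0.93), the Tead4 probe used for the tests shows no trend (-0.09) and the other falls (-0.84).

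Other genes of the pathway were taken from 10 lists, chosen with earlier results of these data known. In none of the 18 contrasts was a listed gene called by limma. Of 18 genes of the Hippo-YAP pathway, 9 were tested, and their median difference was 0.13 in HTF and 0.24 in ISM1 against in vivo, averaged over the strains, and -0.17 in CD1 against B6, with 8 of 9 lower in CD1. Of 24 trophectoderm effector genes (keratins, pumps, water channels, junction and placental genes), 19 were tested, with medians of -0.21 in HTF (13 lower, 6 higher), -0.27 in ISM1 (15 lower, 4 higher) and -0.06 in CD1 against B6. Of 24 other trophectoderm and trophoblast regulators, 14 were tested, with medians of -0.14, 0.37 and -0.03. The median of all genes was 0.01 in each of these contrasts. In the F test over the 8 groups the lowest p of the effector list were those of Aqp9, a water and glycerol channel (adjusted p = 0.309 by limma), Krt7 (0.377), the tight junction gene Cldn6 (0.392) and Aqp3 (0.616). In the Hippo list they were those of Yap1 (0.456), Sav1 (0.669), Amotl2 (0.746) and Tead2 (0.768), and among the regulators those of Sox21 (0.214), Msx2 (0.427), Grhl1 (0.581) and Grhl2 (0.727). Of the other lists, primitive endoderm genes (14 of 18 tested) had medians of -0.43 in HTF (12 lower, 2 higher), -0.36 in ISM1 (11 lower, 3 higher) and 0.17 in CD1 against B6 (10 higher, 4 lower). Inner cell mass and epiblast factors (15 of 18 tested) had 0.09, -0.03 and -0.04, relatives of the 9 factors (12 of 21 tested) -0.10, -0.05 and -0.09, and Id partners with BMP-SMAD genes (9 of 13 tested) 0.28, 0.18 and 0.14. Lowest there in the F test were P4ha2 (adjusted p = 0.162 by limma), Tbx3 (0.590), Gata1 (0.604) and Smad1 (0.546).

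Set against the deviations of Gata2, chosen as reference after its spread was seen, 15 of the 19 effector genes correlated positively, with a median r of 0.46, where the median over all genes was 0.02 and 51.2% were positive. Highest were Tspan8, a tetraspanin, at 0.94, Plac1, a placental secreted protein, at 0.90, Fabp3, a fatty acid binding protein, at 0.87 and Dppa1 at 0.83, and lowest was Aqp9 at -0.45. Among other regulators the median was 0.27, with Ovol1 (0.92), Grhl1 (0.89) and Ets2 (0.85) at one end and the remodeller Smarca4 (-0.79) at the other. The Hippo list had a median of 0.15, from -0.69 for Wwtr1, which encodes TAZ, to 0.73 for Stk4. Partners of ID2 and BMP-SMAD genes had 0.58, and family relatives of the 9 factors 0.11. Naming by coefficient was a choice made with the values in view, and the coefficients are descriptions over 21 arrays that share the main direction given above.

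Genes of the other lineages also moved with Gata2. Primitive endoderm genes had a median r of 0.37 with it (11 of 14 positive), with Sox17 and Pdgfra at 0.95, Serpinh1 at 0.87 and Gata4 at -0.45. Inner cell mass and epiblast factors had a median of 0.15 (9 of 15 positive) and split: Tdgf1 and Bmp4 were at 0.89, while Pou5f1 was at -0.85, Utf1 at -0.72 and Nanog at -0.69. Most effector and primitive endoderm genes were thus positive with Gata2, and the inner cell mass list held genes at both ends. The log2 sum of the keratins Krt8, Krt18 and Krt7 had r = 0.58 with Gata2, that of Gata6, Gata4, Sox17 and Pdgfra 0.72 and that of Pou5f1, Nanog, Sox2 and Klf2 -0.85. The members of these sums did not all go the same way: Gata6 was at 0.07 with Gata2, Sox2 at 0.27 and Klf2 at 0.15.

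**Figure D4:**
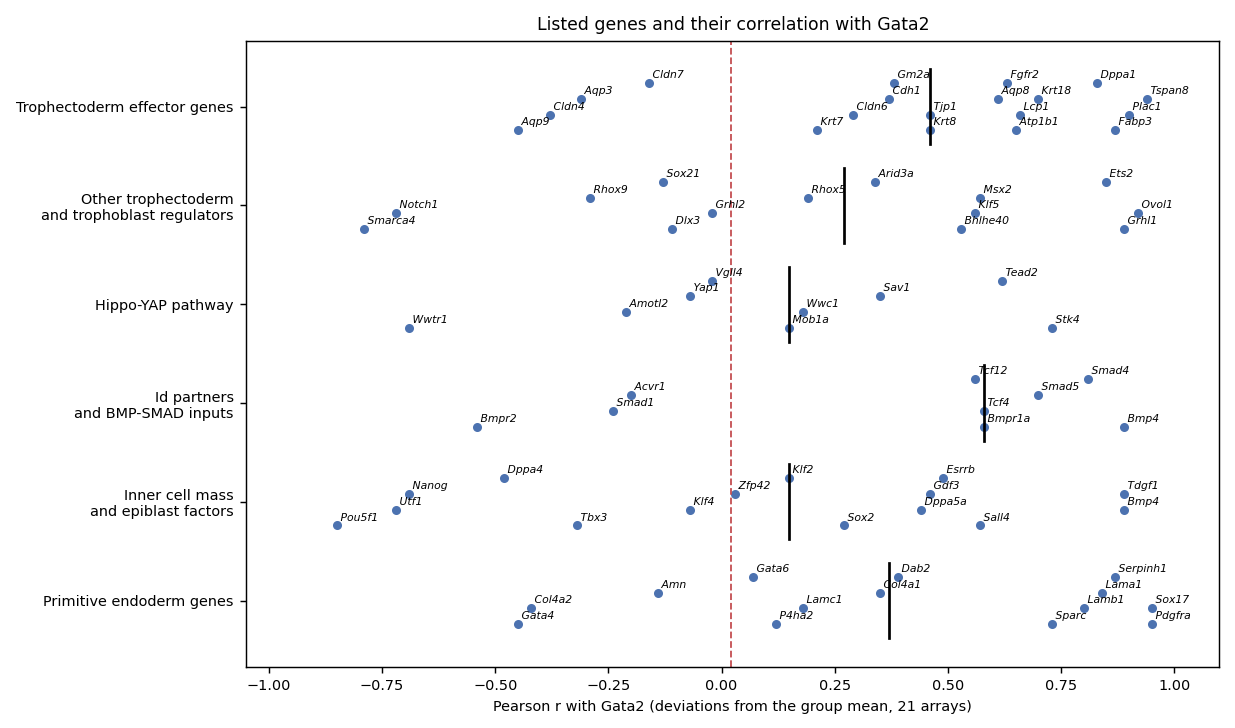
Pearson correlation with Gata2, between deviations from the group mean over 21 arrays, for the tested genes of 6 lists, 1 row per list. Black bars are list medians and the dashed line the median of all tested genes, 0.02; trophectoderm effectors have a median of 0.46, and Pou5f1 at -0.85 lies at the far left. Bmp4 is in 2 lists.

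Markers of cells outside the embryo were also followed. Of 5 cumulus cell markers, Ptx3, Has2, Tnfaip6 and Star were detected on 0 arrays and Cyp11a1 on 20, and the level of Cyp11a1 lay between 5.26 and 6.70 (r = 0.25 with Gata2). Of 5 reproductive tract markers, Wfdc2 was detected on 22 arrays, Muc1 on 18, Msx1 on 7, Ovgp1 on 4 and Ltf on 1. The 4 tested ones did not all go the same way with Gata2: r was 0.88 for Msx1, 0.70 for Wfdc2, 0.20 for Muc1 and -0.54 for Ovgp1. At a mean level of 11.86, against 5.12 to 5.78 for the others, Wfdc2 dominated their log2 sum. That sum had r = 0.71 with Gata2 and ran from 11.09 to 12.83 in B6 in vivo, 10.92 to 13.03 in CD1 in vivo, 10.51 to 11.95 in B6 ISM1 and 9.12 to 12.28 in CD1 ISM1. In the other groups it was 12.44 to 13.31 in B6 KSOM, 11.94 to 12.43 in B6 HTF, 11.60 to 12.27 in CD1 HTF and 12.57 in CD1 KSOM. The highest sums thus stood in a cultured group, B6 KSOM, and the widest range in CD1 ISM1. Of 4 blood and immune markers on the array, Ptprc was detected on 0 arrays, Lyz2 on 1, Hba-a1 on 3 and Cd74 on 10, with a log2 sum of Hba-a1 and Cd74 between 5.54 and 7.47 (r = -0.40 with Gata2). The part of these cells in the covariation was not tested.

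By the rule fixed for likeness, the 3 genes with the highest r between deviations over 21 arrays were Cggbp1 (0.98), Errfi1 (0.97) and Il6 (0.96) for Gata2, Erp29 (0.97), Rbms2 (0.96) and Abhd14b (0.95) for Eomes, and Fgd6, Arhgap44 and Slc38a2 (0.94, 0.93 and 0.93) for Tfap2a. For Cdx2 they were Dnajb1 (0.91), Mettl7a2 (0.87) and Anapc2 (0.85), for Gata3 Ptp4a2 (0.96), Uqcrc2 (0.89) and Nudt16 (0.88), and for Tfap2c Ddx21 (0.92), Vapa (0.91) and Ptpn12 (0.91). For Id2 they were D16Ertd472e (0.94), Rasa1 (0.91) and Rnf6 (0.89), and for Tead4 Zfp592 (0.82), Dcaf15 (0.78) and Oplah (0.71). Over the 22 levels, without removing group means, the closest gene was Lurap1l for Gata2 (0.94), Faah for Eomes (0.91), Nuak1 for Tfap2a (0.88), Sec16a for Cdx2 (0.84), Ptp4a2 for Gata3 (0.93), Ptpn12 for Tfap2c (0.92), Was for Id2 (0.85) and Ints3 for Tead4 (0.81). For Elf5 none is given, because of its clusters. Tead4 had the lowest of these coefficients in both measures, and 0.0963% of all genes exceeded 0.7 in size with it, against 18.6% for Gata2 and 15% for Eomes. For Tead4 these values hold for the probe used for the tests, while its second probe had r = -0.84 with Gata2.

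The single CD1 KSOM array entered the F test, and its differences from other groups were not tested on their own. Its Gata3 level differed from the mean of CD1 in vivo by -2.59 and lay below all 3 of those arrays. Its Elf5 was undetected with a difference of -2.46, but at 4.83 it was within the range of the in vivo arrays. Among these, replicate 1 was also undetected, at 4.56. Its Gata2 level, on the CD1 KSOM array, was 1.89 above the mean but within the range of the in vivo arrays. Tead4, Cdx2 and Tfap2c differed by 0.03, -0.20 and -0.37, Eomes by -0.59, Id2 by 0.42 and Tfap2a by 1.06. Median scaling moved the difference to 0.43 for Tead4 and 0.11 for Cdx2. With 1 array, its difference from other arrays and from the medium cannot be told apart.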

How the data were processed

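Gene expression in mouse blastocysts was measured on 22 Illumina MouseRef-8 arrays of 1 colour. Per the labels' protocols, 150 ng of RNA went into in vitro transcription with biotin for 12 h. Per the submitters' processing notes, BeadStudio 3.2, RMA and lumi were used, with order and settings not given in the sources used here. The deposited raw table holds linear bead intensities, not normalized between arrays. Per the file headers a detection p-value stands beside each intensity, and its method is not stated. The authors' second table holds log2 values, quantile-normalized by the authors as its equal distributions show.

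The neqc function (background correction, an offset of 16, quantile normalization, log2) was applied to the raw intensities in limma 3.58.1 (R 4.3.3), using detection p-values in place of negative controls. The filter on detection left 12992 probes. In the annotation 23978 probes had 1 symbol, 0 had several and 1719 had none. Python 3.11.15 was used beside R. The 8 group means were fitted to 22 arrays with lmFit and eBayes (14 residual degrees of freedom), two-sided, and adjusted over 9345 genes. Correlations were tested with all 279936 permutations of arrays within groups, in NumPy 2.4.6 and SciPy 1.17.1. The procedures were checked on simulated data.

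The members and gene lists were chosen with earlier results of these data known. Named genes are the 9 factors, the 3 genes most like each, and up to 4 genes a list with the smallest p in the F test. Others are said to have been chosen after their values were seen. Replicate numbers are shared by the groups, and the labels do not say what they mark. Of 63 pairs of same-numbered arrays, 23 had deviations correlated above 0.1, and of 21 pairs of groups 1 had this for all its arrays, CD1 HTF with CD1 ISM1 (r = 0.18, 0.18 and 0.21), so a fit with the number as a block is given for that contrast. The columns name no slide or scan, so that block was not run. No probe sequences were used here.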

Additional observations from a re-analysis of the deposited data

How the results depend on the processing

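No member was called in any contrast under 11 of 13 settings or in fits leaving out 1 array. Median scaling called Tead4 in CD1 against B6 (1 member, -0.76, adjusted p = 0.0432 by limma), where it moved the median of all genes to -0.28 and called 570 genes. Array weights, which ran from 0.28 to 5.62, called 2 members in B6 ISM1 against in vivo, Gata2 at -3.92 (adjusted p = 0.00997 by limma) and Elf5 at -2.40 (0.0311), among 1329 genes. Of the 162 member differences, none of them called, 46 changed sign with brightness as covariate, 38 without the 3 dimmest arrays, 32 with array weights and 21 with median scaling, as did 223 of 3564 on leaving out 1 array. With the replicate block, 0 members were called, and the calls over all genes were 3 in place of 22 for CD1 against B6, 2 in place of 8 in the F test, 0 in place of 4 for CD1 ISM1 against HTF and 0 in place of 1 for HTF against in vivo in each strain. Of all 36 pairs, those with Elf5 included, 15 passed, and 12 by Spearman correlation. The count was 24 with median scaling, 23 with the mean of a gene's probes, 9 with brightness regressed out, 9 without the 2 farthest arrays, 0 within CD1, 4 without the 3 dimmest arrays, 26 of 36 when a pair passed through any of its kept probes, and 9 to 19 on leaving out 1 array. It was 9 without B6 KSOM replicate 3, B6 ISM1 replicate 1 or any 1 B6 in vivo array. With the mean of a gene's probes the sign turned for 11 of 36 pairs, each with Tead4 or Tfap2c, whose probes disagree. Those that passed in either setting were Tead4 with Eomes (-0.79) and Elf5 (-0.82), Cdx2 with Tfap2c (-0.52) and Tfap2c with Elf5 (-0.60) and Gata2 (-0.50), the values with Elf5 being pooled over its clusters. The other 6, from -0.36 to -0.58, passed in neither. The settings without the 3 dimmest arrays and with any kept probe were chosen after seeing the data. Causes of the other changes were not tested.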
